A study of Mus musculus with 6 samples.

Results

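This report concerns 34 genes known for their expression in astrocytes, chosen by name from a fixed list and read from the deposited expression files of primary mouse neuron cultures. All 34 were among the 50508 gene symbols listed, and 33 were above 0 in at least 1 library, as were 19504 genes in all. *Gjb6* was listed at 0 in every library. The 2 groups, sgLacZ and sgKcna1, hold 3 libraries each. Both received a lentivirus carrying a nuclease-dead Cas9 fused to the activator VP160 under the Ef1alpha promoter, which is active in most cell types and not limited to neurons. They differed in the guide RNA, which was directed at the bacterial gene LacZ in sgLacZ (Ctrl-dCas9A) and at the promoter of *Kcna1*, encoding the potassium channel Kv1.1, in sgKcna1 (Kcna1-dCas9A). The cells came from C57Bl/6J pups on postnatal day 0 and were transduced after 1 day in vitro. The labels name the hippocampus as their source, while the study's methods name the cortex, and those methods give 10 days in vitro for the RNA in one place and a later time in another.

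Astrocytes are glial cells that take up glutamate and GABA from the synaptic cleft, convert glutamate to glutamine, buffer potassium and water through channels and gap junctions, and supply neurons with lipids in lipoprotein particles. They arise from radial glia after neurogenesis, so that many of their genes are already expressed in progenitors. Cultures of newborn forebrain prepared for neurons usually retain some astrocytes and progenitors. In bulk RNA, fewer cells of a type and less RNA per cell cannot be told apart.

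The values are per-million values rounded to whole numbers, from a kit that reads the 3′ end of each transcript, and they are not divided by transcript length. They summed to between 999047 and 999717 in the 6 libraries, and 14788 to 15417 genes per library were above 0. *Kcna1*, the targeted gene, was listed at 16 in each sgLacZ library and at 68, 47 and 65 in the sgKcna1 libraries. It rose by 1.83 on the log2 scale, with a standard error (SE) of 0.16 and an adjusted p of 0.0345 from limma. The adjusted p was 0.0186 without sgLacZ replicate 3 and 0.112 to 0.143 without any other single library. The library sgLacZ replicate 3 stood apart within its group. Over the 8050 genes with a mean of at least 10, its Pearson correlation with the other sgLacZ libraries was 0.954 and 0.960, against 0.980 between those libraries and 0.979 to 0.985 among the sgKcna1 libraries. Counts of called genes among all members, and among the other lists of astrocyte genes, are therefore given with and without it.

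The astrocyte genes that passed the test were all lower in the sgKcna1 libraries. In limma on log2(value + 1), 6 of the 33 genes above 0 fell, namely *Aqp4*, *Glul*, *Ttyh1*, *Aldoc*, *Sox9* and *Mt2*, with an adjusted p (Benjamini-Hochberg over all genes) under 0.05. Among all 19504 genes, 0.810% were called lower and 0.349% higher. At an unadjusted p under 0.05, 18 of the members were lower and 0 higher, against 13.6% and 9.59% of all genes. The 34 members together made up 0.472% to 0.491% of the values in the sgLacZ libraries and 0.374% to 0.382% in the sgKcna1 libraries, and these ranges did not overlap. *Dbi* held the largest share of that sum, and without it the sums were 3606, 3561 and 3512 in sgLacZ and 2790, 2741 and 2739 in sgKcna1.

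A count that rests on no variance model gave a broader picture. For 18 members every sgKcna1 value lay below every sgLacZ value, and for 0 members every value lay above. Over all genes tested these shares were 13.3% and 8.98%. All of the 18 were among the 26 members with a mean of at least 10, where the shares of all such genes were 23.9% and 15.9%. The median log2 fold change was -0.32 over the 33 members, against -0.02 over all genes tested, and -0.44 against -0.06 over those with a mean of at least 10. When limma was fitted over the genes with a mean of at least 10 alone, 13 of 26 members were called lower and 0 higher, against 17.0% and 11.4% of these genes, and all 6 genes named above were among the 13.

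**Figure D1:**
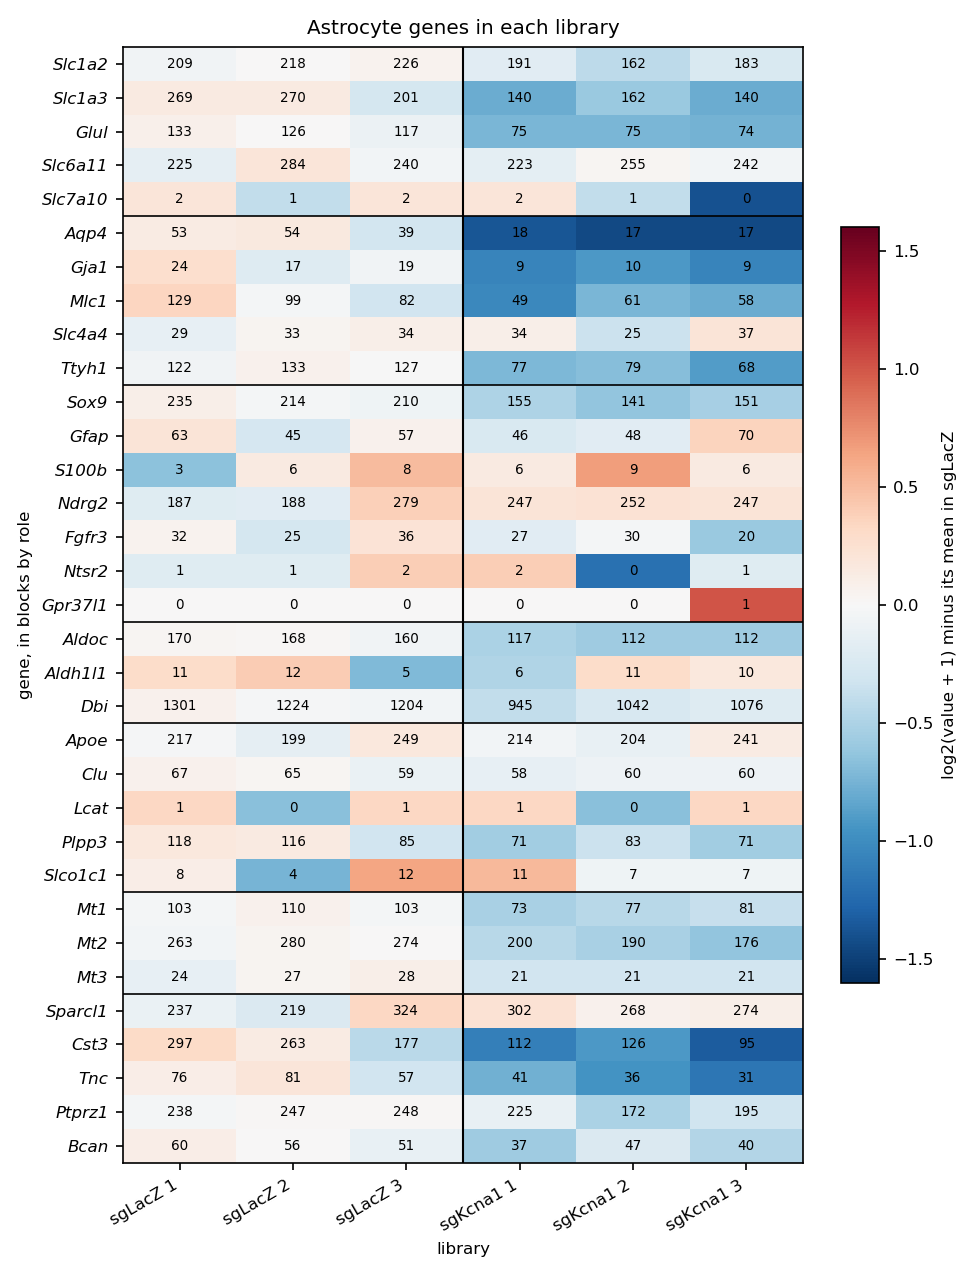
Each cell gives the deposited per-million value of 1 of the 33 genes above 0 (rows, in blocks by role) in a library (columns), and its colour the difference of log2(value + 1) from the sgLacZ mean. *Aqp4*, *Gja1*, *Cst3* and *Tnc* are blue (lower) in all 3 sgKcna1 columns, while *Gfap*, *Apoe* and *Slc4a4* show both colours within sgKcna1.

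The calls depended on the settings of the fit and on single libraries. With a pseudocount of 0.5 in place of 1, 0 members passed in limma, each of the 6 standing at an adjusted p of 0.0508. In that fit 18 were lower at an unadjusted p under 0.05, against 13.6% of all genes. Without the intensity trend *Aqp4* alone passed (adjusted p = 0.0298), and the other 5 stood between 0.0698 and 0.124 (limma). Without sgLacZ replicate 3, 13 members were called lower and 1, *Ndrg2*, higher, against 8.12% and 6.06% of all genes in that fit. Those 13 were the same 13 genes that passed over genes with a mean of at least 10. Without any 1 of the remaining 5 libraries, 0 members passed in limma, as did 0 genes of all those tested, while 15 to 16 members were lower at an unadjusted p under 0.05, against 10.5% to 12.1% of all genes in those fits.

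Of the 5 genes for glutamate and GABA handling, 1 fell, against 0.810% of all genes called lower, and 3 were lower without overlap, against 13.3% of all genes. *Glul*, which encodes glutamine synthetase and converts glutamate to glutamine, was listed at 133, 126 and 117 in sgLacZ and at 75, 75 and 74 in sgKcna1. It fell by 0.74 on the log2 scale (SE 0.09, adjusted p = 0.0486 from limma). The sgKcna1 values agreed within 1 unit and lay far below the lowest sgLacZ value. *Slc1a3*, the glutamate transporter GLAST of immature and mature astrocytes, was listed at 269, 270 and 201 and at 140, 162 and 140. The log2 difference was -0.73 (SE 0.14), and limma gave an adjusted p of 0.0550, just outside the threshold. The groups did not overlap, and sgLacZ replicate 3 was the control nearest to the sgKcna1 values. *Slc1a2*, the transporter GLT-1 that takes over glutamate uptake as astrocytes mature, was listed at 209, 218 and 226 and at 191, 162 and 183. Its log2 fold change was -0.29 (95% interval -0.51 to -0.06, adjusted p = 0.129 from limma), and the groups did not overlap.

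The ratio of *Slc1a3* to *Slc1a2* within a library was 1.29, 1.24 and 0.889 in sgLacZ and 0.733, 1.0 and 0.765 in sgKcna1, so that the groups overlapped through sgLacZ replicate 3. *Slc6a11*, the GABA transporter GAT-3, had the highest mean of these genes and was listed at 225, 284 and 240 and at 223, 255 and 242. The groups overlapped, and the log2 fold change of -0.05 had an interval from -0.32 to 0.22. *Slc7a10*, an exchanger of small neutral amino acids, stayed between 0 and 2 in all libraries. Without sgLacZ replicate 3 the log2 difference of *Glul* was -0.79 (adjusted p = 0.0174) and that of *Slc1a3* -0.87 (adjusted p = 0.0186), and without any other single library the adjusted p of *Glul* was 0.112 to 0.143 (limma).

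The genes for water channels, gap junctions and membranes of the perivascular endfeet held the lowest sum relative to the controls, 187 to 192 in sgKcna1 against 301 to 357 in sgLacZ. Of these 6 genes, 2 fell and 4 were lower without overlap, against 0.810% and 13.3% of all genes. *Aqp4*, the water channel of astrocyte endfeet, was listed at 53, 54 and 39 in sgLacZ and at 18, 17 and 17 in sgKcna1. It fell by 1.42 on the log2 scale (SE 0.16, adjusted p = 0.0486 from limma), the largest difference among the members called. The highest sgKcna1 value was under the lowest sgLacZ value by 21 units. *Ttyh1*, a membrane protein of the tweety family found in glia and neural progenitors, was listed at 122, 133 and 127 and at 77, 79 and 68. It fell by 0.76 on the log2 scale (SE 0.10, adjusted p = 0.0486 from limma), and no library of either group came near the other.

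*Gja1*, which encodes connexin 43 and forms the gap junctions that couple astrocytes, was listed at 24, 17 and 19 and at 9, 10 and 9. Its log2 difference was -1.01 (SE 0.18, adjusted p = 0.0512 from limma). *Mlc1*, a membrane protein of astrocyte junctions at vessels, was listed at 129, 99 and 82 and at 49, 61 and 58, and the log2 difference was -0.85 (SE 0.18, adjusted p = 0.0556 from limma). Neither passed the threshold, although in both genes all sgKcna1 values lay below all sgLacZ values. *Slc4a4*, the sodium bicarbonate cotransporter NBCe1, was listed at 29 to 34 in sgLacZ and at 25 to 37 in sgKcna1, with means of 32 in both groups. *Gjb6*, which encodes connexin 30, a gap junction protein of mature astrocytes, was the member listed at 0 throughout. Without sgLacZ replicate 3 the adjusted p was 0.0174 for *Aqp4*, 0.0217 for *Ttyh1*, 0.0329 for *Gja1* and 0.0321 for *Mlc1*. Without any other single library it was 0.112 to 0.143 for *Aqp4* and for *Ttyh1* (limma).

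Among the genes for identity, the intermediate filament and receptors, 1 of 7 fell, against 0.810% of all genes. *Sox9*, a transcription factor of neural stem cells and astrocytes, was listed at 235, 214 and 210 in sgLacZ and at 155, 141 and 151 in sgKcna1. It fell by 0.56 on the log2 scale (SE 0.09, adjusted p = 0.0496 from limma). The groups were separated by 55 units, several times the SD within either group (13.4 and 7.21). Without sgLacZ replicate 3 its adjusted p was 0.0227, and without any other single library it was 0.112 to 0.143 (limma).

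*Gfap*, the intermediate filament protein most used to mark astrocytes, gave a different picture. It was listed at 45 to 63 in sgLacZ and at 46 to 70 in sgKcna1, with means of 55.0 ± 9.17 and 54.7 ± 13.3 (SD, n = 3). The interval of its log2 fold change ran from -0.49 to 0.45, which leaves room for a change of the size seen in *Slc1a2*. Within each library the ratio of *Aqp4* to *Gfap* was 0.841, 1.20 and 0.684 in sgLacZ and 0.391, 0.354 and 0.243 in sgKcna1, without overlap. This pair was chosen after its values were seen, and the ratio is a description with no test.

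*Ndrg2*, a protein of the N-myc downstream regulated family enriched in astrocytes, was listed at 187, 188 and 279 in sgLacZ and at 247, 252 and 247 in sgKcna1. The sgKcna1 libraries lay between the controls, and sgLacZ replicate 3 was the highest of all. Its log2 fold change was 0.22 (95% interval -0.17 to 0.60), and without sgLacZ replicate 3 it was 0.41 (adjusted p = 0.0209 from limma). *Fgfr3*, a receptor for fibroblast growth factors in glial precursors and astrocytes, ranged from 25 to 36 and from 20 to 30, and *S100b*, a calcium-binding protein, from 3 to 8 and from 6 to 9. The receptors of mature astrocytes were scarcely listed, with *Ntsr2*, a neurotensin receptor, at 0 to 2 and *Gpr37l1*, an orphan receptor, at 1 in sgKcna1 replicate 3 and 0 elsewhere.

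**Figure D2:**
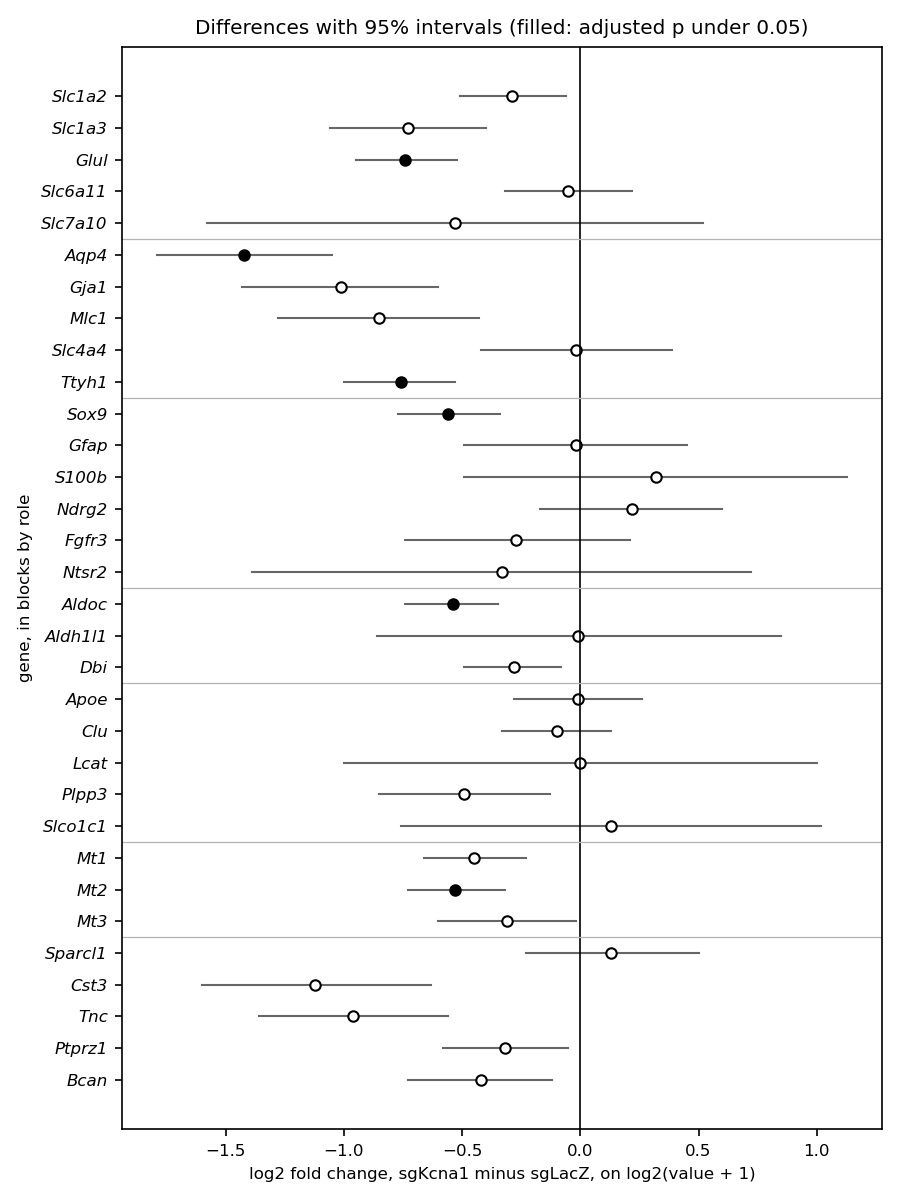
Points give the log2 fold change of the 32 genes above 0 in sgLacZ (sgKcna1 minus sgLacZ, on the log2(value + 1) scale) and lines its 95% interval from limma. The 6 filled points passed an adjusted p of 0.05 and all lie left of 0, while the widest intervals belong to genes with means under 10.

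Of the metabolic enzymes, *Aldoc*, the aldolase of glycolysis found in brain and concentrated in astrocytes, was listed at 170, 168 and 160 in sgLacZ and at 117, 112 and 112 in sgKcna1. It fell by 0.54 on the log2 scale (SE 0.08, adjusted p = 0.0496 from limma). The spread within each group was small (SD 5.29 and 2.89) beside the gap of 43 units between them. *Dbi*, which binds acyl-CoA esters and is also expressed in progenitors, had the highest values of all members, with a mean rank of 57 among all genes tested. It was listed at 1301, 1224 and 1204 and at 945, 1042 and 1076, with a log2 fold change of -0.28 (95% interval -0.49 to -0.08, adjusted p = 0.110 from limma) and no overlap. *Aldh1l1*, the folate enzyme widely used as an astrocyte marker, was low and uneven, from 5 to 12 and from 6 to 11. Without sgLacZ replicate 3 the adjusted p of *Aldoc* was 0.0186, and without any other single library it was 0.112 to 0.143 (limma).

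The genes for lipids and lipoproteins had sums of 384 to 411 in sgLacZ and 354 to 380 in sgKcna1, and 1 of 5 was lower without overlap, against 13.3% of all genes. *Apoe*, the apolipoprotein by which astrocytes export cholesterol and which microglia also express, was listed at 217, 199 and 249 and at 214, 204 and 241. The ranges of the groups overlapped, and the interval of the log2 fold change was -0.28 to 0.26. *Clu*, clusterin, a secreted chaperone of lipoproteins, ranged from 59 to 67 and from 58 to 60. *Plpp3*, a phosphatase of bioactive lipids, was the gene without overlap, listed at 118, 116 and 85 and at 71, 83 and 71. Its log2 difference was -0.49 (SE 0.15, adjusted p = 0.114 from limma), and sgLacZ replicate 3 exceeded the highest sgKcna1 value by only 2 units. Without that library the log2 difference was -0.64 (adjusted p = 0.0284 from limma). *Slco1c1*, a thyroxine transporter, ranged from 4 to 12 over all libraries, and *Lcat*, which esterifies cholesterol, from 0 to 1.

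All 3 metallothioneins were lower in every sgKcna1 library than in any sgLacZ library, as were 13.3% of all genes and 23.9% of those with a mean of at least 10. Metallothioneins are small cysteine-rich proteins that bind zinc and copper. The genes *Mt1* and *Mt2* are switched on by metals through the factor MTF-1 and its metal response elements. *Mt2* was listed at 263, 280 and 274 in sgLacZ and at 200, 190 and 176 in sgKcna1. It fell by 0.53 on the log2 scale (SE 0.09, adjusted p = 0.0496 from limma). *Mt1* was listed at 103, 110 and 103 and at 73, 77 and 81, and the log2 difference was -0.45 (SE 0.09, adjusted p = 0.0556 from limma). *Mt3*, the form expressed mainly in brain, was listed at 24, 27 and 28 and at 21 in each sgKcna1 library, with a log2 fold change of -0.31 (95% interval -0.60 to -0.02, adjusted p = 0.188 from limma). The ratio of *Mt1* to *Mt2* overlapped between the groups, from 0.376 to 0.393 and from 0.365 to 0.460. Without sgLacZ replicate 3 the adjusted p was 0.0276 for *Mt2* and 0.0329 for *Mt1*, and without any other single library that of *Mt2* was 0.112 to 0.143 (limma).

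The 3 genes lie next to each other on chromosome 8, with starts 20.0 kb (*Mt3* to *Mt2*) and 6.47 kb (*Mt2* to *Mt1*) apart in GRCm38.p6, which may not be the build behind the files. Their 250 bases upstream of the start, from RefSeq on GRCm38.p6, are shown because the 3 genes differed in the same direction and because the metal response element is known from this family. Capitals mark the core of that element, searched as TGCACNC and TGCGCNC on both strands.
Mt1 (chr8:94178839-94179088, plus strand): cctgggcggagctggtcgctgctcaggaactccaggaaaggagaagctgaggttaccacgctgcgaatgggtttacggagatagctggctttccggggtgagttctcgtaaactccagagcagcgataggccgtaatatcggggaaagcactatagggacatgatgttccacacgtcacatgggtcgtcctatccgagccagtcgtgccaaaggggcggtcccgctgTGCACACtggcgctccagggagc
Mt2 (chr8:94172368-94172617, plus strand): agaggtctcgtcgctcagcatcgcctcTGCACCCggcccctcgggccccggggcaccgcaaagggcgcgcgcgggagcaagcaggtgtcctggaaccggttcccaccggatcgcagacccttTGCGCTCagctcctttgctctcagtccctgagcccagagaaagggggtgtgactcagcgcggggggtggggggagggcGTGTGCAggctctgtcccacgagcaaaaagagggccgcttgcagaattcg
Mt3 (chr8:94152357-94152606, plus strand): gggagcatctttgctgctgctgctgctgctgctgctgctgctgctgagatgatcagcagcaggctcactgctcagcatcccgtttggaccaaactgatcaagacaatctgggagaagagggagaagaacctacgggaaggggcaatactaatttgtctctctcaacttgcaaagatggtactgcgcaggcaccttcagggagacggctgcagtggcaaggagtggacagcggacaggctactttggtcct

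Including the 50 bases after the start, the window of *Mt2* held 4 cores, that of *Mt1* 3 and that of *Mt3* 1, the last from 28 to 34 bases after the start. Of the 27025 genes with a promoter window, 28.2% held at least 1 core in either form and 2.27% held 3 or more. Among the 30 members with a window, 12 held a core, but *Mt1* and *Mt2* were the members with 3 or more. The matches describe the letters of these windows and are not evidence of binding.

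A second motif was searched because STAT3 is known to act on *Gfap* in astrocytes. The palindrome TTCNNNGAA was found in the windows of 4 of 30 members, *Aldoc*, *Gfap*, *Ntsr2* and *Slc1a3*, against 9.55% of genes with a window. The members with this match thus include *Aldoc*, which fell, and *Gfap*, whose groups overlapped. An NFI site (TTGGCA) was found in 5 members and a SOX site (ACAATG) in 2, against 16.1% and 14.3% of genes. The STAT match of *Gfap* spans its start, from 2 bases before to 7 after it. The last 150 bases upstream of *Slc1a3* and *Aldoc* are shown with the palindrome in capitals.
Slc1a3 (chr15:8710808-8710957, minus strand): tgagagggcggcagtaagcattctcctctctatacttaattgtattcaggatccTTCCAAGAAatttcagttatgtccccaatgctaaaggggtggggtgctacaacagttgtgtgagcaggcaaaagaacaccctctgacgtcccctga
Aldoc (chr11:78324048-78324197, plus strand): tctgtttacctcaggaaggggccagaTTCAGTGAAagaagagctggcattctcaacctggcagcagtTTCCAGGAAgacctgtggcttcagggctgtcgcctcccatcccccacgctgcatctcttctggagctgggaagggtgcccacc

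Of the secreted and matrix genes, 4 of 5 were lower without overlap, against 23.9% of all genes with a mean of at least 10. In limma over all genes 0 of them passed, against 0.810% of all genes called lower. At an unadjusted p under 0.05, 4 were lower, against 13.6% of all genes. *Cst3*, cystatin C, a secreted inhibitor of cysteine proteases that microglia also make, was listed at 297, 263 and 177 in sgLacZ and at 112, 126 and 95 in sgKcna1. Its log2 difference was -1.12 (SE 0.21, adjusted p = 0.0527 from limma), and the controls differed among themselves more than in most members (SD 61.8). *Tnc*, tenascin C, a matrix glycoprotein of immature astrocytes and radial glia, was listed at 76, 81 and 57 and at 41, 36 and 31, and the log2 difference was -0.96 (SE 0.17, adjusted p = 0.0527 from limma). In both genes sgLacZ replicate 3 was the lowest control, and without it the log2 fold changes were -1.33 and -1.11 with adjusted p of 0.0194 and 0.0214 (limma).

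*Ptprz1*, a receptor phosphatase of glial precursors that is also shed into the matrix, was listed at 238, 247 and 248 and at 225, 172 and 195. *Bcan*, the matrix proteoglycan brevican made by astrocytes and oligodendrocyte precursors, was listed at 60, 56 and 51 and at 37, 47 and 40. Both had log2 fold changes whose intervals stayed below 0, at -0.58 to -0.05 and -0.73 to -0.12, and neither passed the adjusted threshold (0.148 and 0.109 from limma). *Sparcl1*, the secreted synapse-promoting protein hevin, was listed at 237, 219 and 324 and at 302, 268 and 274. Here the sgKcna1 libraries lay within the range of the controls, and sgLacZ replicate 3 was again the highest of all libraries.

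**Figure D3:**
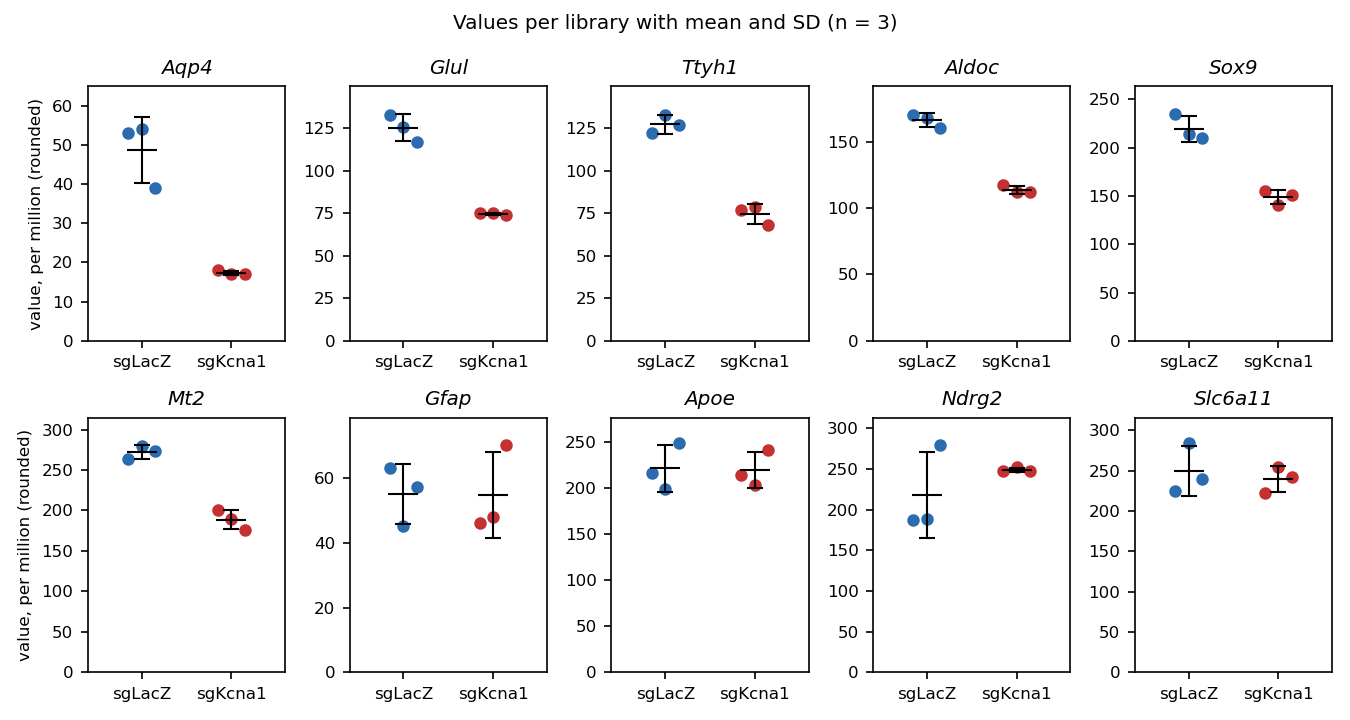
Dots give the per-million value of each library (vertical axis from 0), bars the group mean and SD (n = 3). The 6 genes called lower (*Aqp4* to *Mt2*) show no overlap between sgLacZ (blue) and sgKcna1 (red), and *Gfap*, *Apoe*, *Ndrg2* and *Slc6a11* overlap.

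Among the controls, sgLacZ replicate 3 was the library nearest to the sgKcna1 mean for 16 of the 26 members with a mean of at least 10 (61.5%). Over all 8050 such genes this share was 59.5%, so that the position of this library among the members was close to that among other genes. It was reached from both sides. In *Aqp4*, *Slc1a3*, *Mlc1*, *Plpp3*, *Cst3* and *Tnc* this library was the lowest control, whereas in *Ndrg2* and *Sparcl1* it was the highest.

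The members were also divided by how far astrocytes are known to be their main source in brain. The 18 genes with expression weighted to astrocytes, such as *Aqp4*, *Slc1a2* and *Aldh1l1*, had a median log2 fold change of -0.33, and 8 of them had groups that did not overlap. The 16 genes also expressed widely in other brain cells, such as *Apoe*, *Dbi* and *Mt3*, had a median of -0.31, and 10 did not overlap, against 13.3% of all genes that were lower without overlap and 23.9% of those with a mean of at least 10. The sums were 0.728 and 0.814 of the sgLacZ mean. Among the 12 and 14 genes with a mean of at least 10, which held all those without overlap, the medians were -0.55 and -0.37. In the main fit 4 and 2 genes were called lower, against 0.810% of all genes. Fitted over genes with a mean of at least 10, 7 and 6 were called lower, against 17.0%.

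Of 54 further astrocyte genes, 51 were above 0, and 1 of them, *Id3*, passed the test, against 0.810% of all genes called lower and 0.349% higher. *Id3*, an inhibitor of differentiation factors that responds to bone morphogenetic proteins, was listed at 95, 81 and 59 in sgLacZ and at 27, 23 and 16 in sgKcna1. It fell by 1.79 on the log2 scale (SE 0.24, adjusted p = 0.0486 from limma). In 15 of the 51 the groups did not overlap with lower values in sgKcna1, and in 2 with higher values, against 13.3% and 8.98% of all genes. Among the 22 with a mean of at least 10 these counts were 10 and 2, against 23.9% and 15.9% of such genes. The median log2 fold change of the list was -0.33, yet its summed value overlapped between the groups, at 5961 to 6345 and 5879 to 6736. *Nfix*, *Nfib*, *Nfia*, factors of the nuclear factor I family, and *Mfge8*, a secreted glycoprotein, held 4515 to 4908 of it in sgLacZ and 4644 to 5418 in sgKcna1. Without these 4 genes, set aside after their values were seen, the sums were 1423 to 1446 and 1235 to 1318. *Kcnj10*, the potassium channel Kir4.1 of astrocytes, was listed at 11, 10 and 8 and at 7, 5 and 5, and *Hepacam*, the adhesion partner of *Mlc1*, at 19, 24 and 28 and at 14, 12 and 15. Neither passed in limma over all genes (adjusted p = 0.121 and 0.0690). The 2 genes that were higher without overlap were *Sparc*, a secreted matrix protein, at 234, 217 and 277 and at 305, 314 and 338, and *Mertk*, a receptor for engulfment, at 8 in each sgLacZ library and at 13, 12 and 14. They did not pass in that fit either (adjusted p = 0.0889 and 0.0692 from limma). Fitted over genes with a mean of at least 10, *Sparc* and *Mertk* had adjusted p of 0.0263 and 0.0526 (limma). Without sgLacZ replicate 3 both were called higher, as were *Mfge8* and *Lfng*, while 5 further astrocyte genes were called lower.

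Genes that mark reactive astrocytes in injury and inflammation showed no call in the main fit. Of 32 listed, 28 were above 0 and 0 passed in limma, with 7 lower and 2 higher at an unadjusted p under 0.05, against 13.6% and 9.59% of all genes. Without overlap, 7 were lower and 2 higher, against 13.3% and 8.98% of all genes. The median log2 fold change was -0.31, and the list summed to 566, 590 and 489 in sgLacZ and to 479, 405 and 425 in sgKcna1. *Cd44*, a hyaluronan receptor of reactive and immature astrocytes, was listed at 30, 26 and 10 and at 5, 5 and 6 (adjusted p = 0.0556 from limma). *C3*, a complement component used to mark reactive astrocytes, was listed at 0, 1 and 1 and at 2, 3 and 2, and *Serpina3n*, a protease inhibitor of the same state, stayed between 1 and 3. Fitted over genes with a mean of at least 10, 3 of 8 reactive genes were called lower and 1 higher, and 8 of 22 further astrocyte genes lower and 2 higher, against 17.0% and 11.4% of all genes in that fit. The counts called higher were near that background. Without sgLacZ replicate 3, 4 of 28 reactive genes, *Cd44*, *Iigp1*, *Ptx3* and *Emp1*, were called lower and 0 higher. In that fit 5 of 51 further astrocyte genes were called lower and 4 higher, against 8.12% and 6.06% of all genes. With median-of-ratios factors 2 reactive genes were called lower and 1 higher, and 6 and 2 further ones. Of all 19504 genes, 757 were called lower and 962 higher with these factors.

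Marker sums of other cells also differed between the groups, and their part in the differences above was not tested. Progenitor genes, 8 in the list, summed to 985, 824 and 680 in sgLacZ and to 369, 307 and 366 in sgKcna1. In limma 2 of them, *Fabp7* and *Hes5*, fell, against 0.810% of all genes called lower. These 2 genes held most of the sum in sgLacZ. In all, 5 of the 8 were lower without overlap, against 13.3% of all genes, the others being *Nes*, *Hes1* and *Eomes*. *Sox2*, *Pax6* and *Prom1* overlapped between the groups, with ratios of means (sgKcna1 to sgLacZ) of 0.837, 0.824 and 1.14. *Fabp7*, the fatty acid-binding protein of radial glia and young astrocytes, was listed at 635, 471 and 301 and at 118, 82 and 117. Its log2 difference was -2.09 (SE 0.28, adjusted p = 0.0486 from limma). The 10 genes of dividing cells summed to 132 to 142 and to 82 to 91, and 7 of them were lower without overlap, against 13.3% of all genes. The 11 genes of the oligodendrocyte lineage summed to 72 to 104 and to 47 to 52, of which *Olig2*, a factor of that lineage and of progenitors, fell by 1.05 on the log2 scale (SE 0.18, adjusted p = 0.0497 from limma). Of its myelin genes, *Mog* and *Mag* were at 0 in every library, and *Mbp* went the other way from the sum, at 3, 3 and 2 and at 7, 4 and 7. *Cnp*, a further myelin gene, was listed at 6, 3 and 6 and at 7, 6 and 9, and neither *Mbp* nor *Cnp* passed in limma (adjusted p = 0.113 and 0.347).

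Microglial markers went the other way. The 12 genes summed to 43, 32 and 42 in sgLacZ and to 87, 71 and 99 in sgKcna1, with *P2ry12*, which marks resting microglia, at 0 in all libraries. *C1qa*, a complement subunit made by microglia, was listed at 9, 6 and 6 and at 23, 22 and 24, and rose by 1.61 on the log2 scale (SE 0.19, adjusted p = 0.0486 from limma). The 11 neuronal genes summed to 7978 to 9219 in sgLacZ and to 9485 to 11109 in sgKcna1. In limma 0 of them passed, with 3 lower and 3 higher at an unadjusted p under 0.05, against 13.6% and 9.59% of all genes. Without overlap 3 were lower (*Snap25*, *Map2* and *Elavl4*) and 3 higher (*Tubb3*, *Nefl* and *Gap43*), against 13.3% and 8.98% of all genes. *Snap25*, a protein of synaptic vesicle fusion, was listed at 94, 89 and 86 and at 66, 59 and 56 (adjusted p = 0.0527 from limma). *Tubb3*, the neuronal tubulin, was listed at 1862, 1752 and 2605 and at 3855, 3221 and 4591 (adjusted p = 0.0556 from limma). Without *Tubb3* the sums overlapped, at 6157 to 6614 and 6264 to 6807, and so did those of excitatory and inhibitory neuron genes. Endothelial and fibroblast genes were listed at summed values of at most 14 in any library, and 3 of 5 ependymal genes at 0 throughout. *Foxj1*, which drives motile cilia, was listed at 7, 5 and 4 and at 0, 0 and 1 (adjusted p = 0.0496 from limma).

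**Figure D4:**
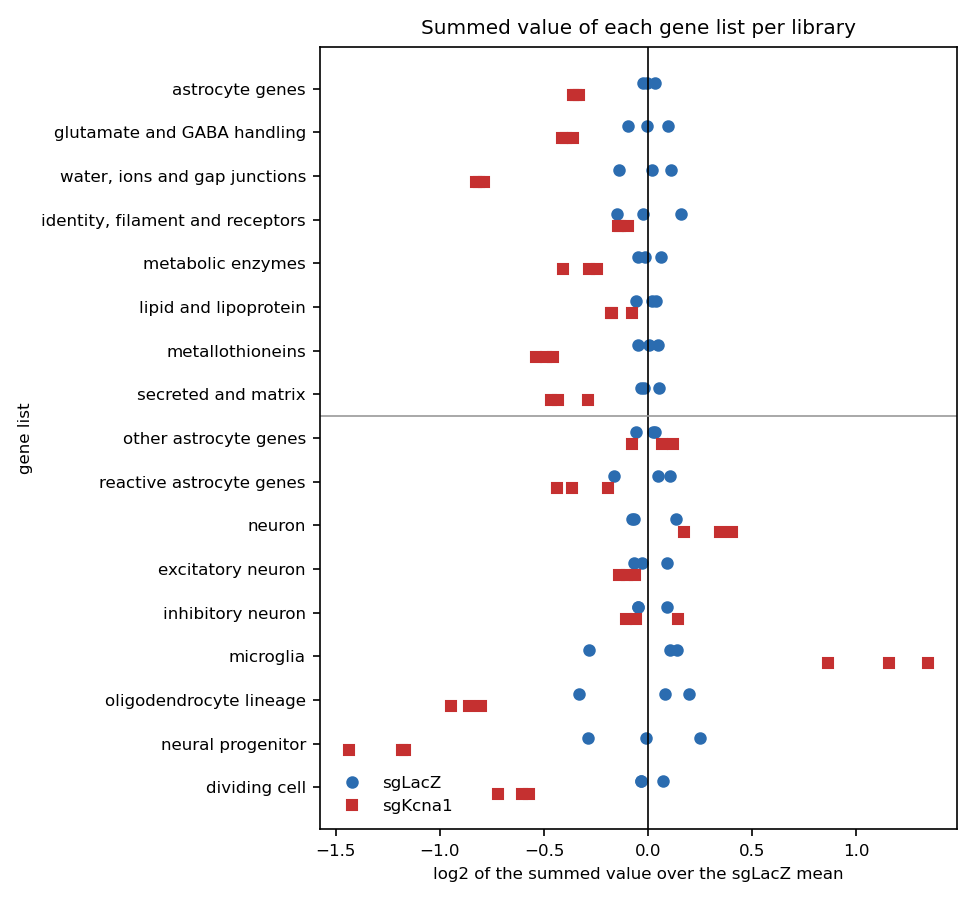
Each point is the summed value of a gene list in 1 library, as log2 over the sgLacZ mean of that list (horizontal axis). The astrocyte genes and their role groups stand above the line and other lists below it, and progenitor, oligodendrocyte lineage and dividing cell lists lie left of 0 in sgKcna1 (red) while the microglial list lies to the right.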

How the data were processed

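QuantSeq 3′ libraries, 3 per group, were compared. The authors deposited 1 whole number per gene and library without a header. The numbers sum to at most 999717 per library, and replicate variance at low values lies below the mean. The deposited score was therefore taken as per-million values, rounded by the authors. The depth is therefore unknown, and no counting interval or floor is given. The methods name Bowtie2 and NCBI37/mm9 for these libraries, whereas the submitters' processing notes list STAR 2.7, featureCounts, DESeq2 and mm10. The annotation and the scaling are not given in the sources used here.

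Genes above 0 in at least 1 library were fitted with limma 3.58.1 (R 4.3.3), using an intensity trend, on log2(value + 1) for 1 factor, the guide, and p-values were adjusted by Benjamini-Hochberg over all genes fitted. At low values this scale makes changes look smaller than they are. The script was tested on simulated data. Calls from the same fit over genes with a mean of at least 10 are given beside it. Values for every library are given for members past the threshold, for members whose groups did not overlap and for the highest member of each role group. Other members are given by range. *Gfap*, *Clu*, the further and reactive astrocyte genes named beside *Id3*, the named markers of other cells, and the ratios between members, were chosen after their values were seen.

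The members and the other gene lists were chosen with earlier results of these data known. The labels do not say that replicate numbers mark a shared culture, and nothing says that libraries came from separate cultures, so p-values measure the spread between these libraries, which may be technical. Promoter windows (250 bases before to 50 after a start) come from RefSeq on GRCm38.p6, and 30 of the 34 members had one. Alternatives were other pseudocounts, filters, scalings and variance models, the replicate block, another threshold and each library left out.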

Additional observations from a re-analysis of the deposited data

How the results depend on the processing

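Alternatives were set with earlier results of these data known. The number of members called lower, 6 as reported (0.810% of all genes in that fit), was 0 with a pseudocount of 0.5 (0.0256%, or 5 genes lower and 5 higher), 10 with 0.1 (1.88%), 12 over genes with a mean of at least 1 (7.17%), 13 over those with a mean of at least 10 (17.0%), 12 with no filter (2.66%, where limma warned of zero variances), 11 with median-of-ratios factors (3.88%), 10 with upper-quartile factors (1.98%), 12 without Gm42418 (5.58%), 1 without the intensity trend (0.431%), 14 with a robust trend (8.55%), 12 at an adjusted p of 0.1 (7.05%), and 0 to 13 when each library was left out (0% to 8.12%). With the replicate block it was 0, with 17 lower and 0 higher at an unadjusted p under 0.05, against 12.9% and 9.31% of all genes in that fit. Correlations of deviations between libraries with the same replicate number were 0.014, 0.114 and 0.154 over 8050 genes. Between different numbers they ranged from -0.156 to 0.099. Each sgKcna1 library correlated best with the control of its own number, while sgLacZ replicate 1 correlated best with sgKcna1 replicate 2 (0.099). These small correlations do not settle whether the numbers pair libraries, and the main fit did not pair them. The number called higher, 0, was 0 to 1 when each library was left out.

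For the further astrocyte genes the number called lower, 1, was 0 with a pseudocount of 0.5, 3 with 0.1, 7 and 8 with a mean of at least 1 and 10, 10 with no filter, 6 with either rescaling, 9 without Gm42418, 0 without the trend, 11 with a robust trend, 10 at an adjusted p of 0.1, 0 with the replicate block, and 0 to 5 when each library was left out. The number called higher, 0, was 2 over genes with a mean of at least 10 (11.4% of all genes in that fit). It was 2 with median-of-ratios factors (962 of 19504 genes) and 4 without sgLacZ replicate 3 (6.06%). The cause of these shifts was not tested.

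The number of members lower without overlap, 18, was 16 with median-of-ratios factors, 15 with upper-quartile factors and 17 without Gm42418. All 18 have means of at least 10, so the filters did not change it, and leaving out a library cannot lower it. The number higher, 0, was 0 to 2 when each library was left out. The median log2 fold change of the members, -0.32, was -0.44 over genes with a mean of at least 10, -0.23 with median-of-ratios and -0.20 with upper-quartile factors, and -0.41 to -0.31 when each library was left out. Rescaling moved the median of all genes with a mean of at least 10 from -0.06 to 0.03 and 0.05. Relative to that median, the members with a mean of at least 10 stood at -0.38, -0.38 and -0.37. *Kcna1* kept a log2 fold change of 1.83 with the block (adjusted p = 0.111 from limma) and of 1.73 to 1.99 when each library was left out, where it lost the call in 5 of 6 fits (adjusted p = 0.112 to 0.143 from limma).

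Signs turned in 9 members, none of them called. With median-of-ratios and upper-quartile factors the log2 fold changes were 0.04 and 0.07 for *Slc6a11*, 0.07 and 0.10 for *Slc4a4*, 0.07 and 0.09 for *Gfap*, 0.07 and 0.10 for *Aldh1l1*, and 0.08 and 0.11 for *Apoe*, and 0.02 for *Clu* with upper-quartile factors. When each library was left out they ranged from -0.12 to 0.04 for *Slc6a11*, -0.13 to 0.15 for *Slc4a4*, -0.21 to 0.09 for *Gfap*, -0.01 to 0.58 for *S100b*, -0.69 to 0.10 for *Ntsr2*, -0.36 to 0.23 for *Aldh1l1*, -0.08 to 0.08 for *Apoe* and -0.24 to 0.45 for *Slco1c1*. Rounding to whole numbers limits the precision of members with values under 10.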
